A study of Homo sapiens with 18 samples.

Results

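Wild-type membrane footprints relative to mRNA compare, within unedited HEK293 cells, the ribosome-protected RNA of the membrane fraction with the mRNA of the whole cell, transcript by transcript. The comparison took 4 of the 18 libraries of the study, chosen by their labels: membrane footprint libraries a and b of wild type (WT) and mRNA libraries a and b of WT. A transcript entered when its identifier without version was in both kinds of file and the 2 deposited lengths matched, which held for 25629 of the 26679 footprint entries. Of these, 21451 had a count in at least 1 of the 4 libraries, and entries with the same counts in all 4 were merged into 14400 distinct features. Of the 14400 features, 13251 passed the filter on low counts and were tested, and 1149 did not pass it. A tested feature stood for 1 transcript in 10352 cases and for more than 1 in 2899, so isoforms of a gene are separate features here and a count of features is not a count of genes.

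HEK293 is a human embryonic kidney cell line. The study profiled it beside 2 lines made from it with Cas9, UFM1-KO and UFSP2-KO, each grown from 1 clone, and all cells were kept in DMEM with 10% FBS with no other treatment named. The WT cells were not edited. For the membrane fraction, the pellet left by the cytosolic digitonin extract was lysed with Triton, ribosomes were footprinted with RNase I and the protected RNA was cloned, whereas the mRNA libraries were made from whole cell lysates with a stranded TruSeq kit and Ribo-Zero Gold, which removes ribosomal RNA. UFM1 is a small modifier that is attached to proteins in the manner of ubiquitin, and UFSP2 cleaves it off again.

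Ribosomes that make secreted and membrane proteins are brought to the endoplasmic reticulum while the chain is still growing, and remain there until the protein is finished. Ribosome profiling counts the pieces of mRNA that ribosomes shield from a nuclease, so footprints per mRNA describe how many ribosomes a transcript carries for each copy of it. When only the membrane fraction is footprinted, the ratio depends on how densely a transcript is loaded with ribosomes and on what part of those ribosomes is in the membrane fraction. Those 2 quantities cannot be told apart within this comparison, nor can either be told apart from differences between the library preparations of the 2 assays.

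The files give transcripts by Ensembl identifier and do not pair them with gene names, and no table at hand did so. The cell line and the purity of the fractions were therefore not checked against marker genes, and features are grouped below by their distribution between the fractions, coding length and mRNA level. The matched features held 2613372 and 7623397 footprints in membrane libraries a and b, and 18808230 and 21230729 mRNA counts in mRNA libraries a and b. The median tested feature had 35 and 100 footprints against 525 and 613 mRNA counts, so counts were lowest in membrane library a. Libraries a and b of an assay differed beyond sampling noise, and nothing says whether they came from separate cultures. The p-values below thus measure the spread between these libraries only, which may be technical. In bulk lysates fewer cells of a kind and less RNA per cell cannot be told apart.

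Membrane footprints did not follow mRNA 1 to 1. By the quasi-likelihood test of edgeR, at an adjusted p (Benjamini-Hochberg) under 0.05, 3505 features (26.5% of those tested) had more membrane footprints per mRNA than the bulk of features, 3994 (30.1%) had fewer, and 5752 were not called. The difference was over 2-fold in 2447 of the higher and 3007 of the lower features, and over 4-fold in 850 and 1153. Zero on this log2 scale is set by the TMM scaling, which centres the ratio on the bulk of features, since footprints and mRNA have no common absolute scale. With the library totals alone as the scale, 1671 features were higher and 7653 lower, so that 17.9% of the calls were higher in place of 46.7%, and the median over all tested features shifted by -0.82. Directions are therefore relative to the other features, and medians of groups are given below as relative medians, that is, less the median of all tested features.

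The log2 ratio had a median of -0.14 over the 13251 features, with quartiles of -1.02 and 0.73, and 5th and 95th percentiles of -2.64 and 2.20. The feature at the 95th percentile thus had 28.6-fold more membrane footprints per mRNA than the feature at the 5th. This spread (SD 1.70) was wider than that of the difference between libraries a and b, which was 0.69 for the membrane footprints and 0.48 for the mRNA. The first is of the log2 ratio fitted by edgeR. The other 2 are of log2 CPM with a prior count of 2, which narrows the spread at low counts, so the measures are not alike there. Among the 5504 features with at least 50 counts in each of the 4 libraries, the SD of the ratio was 1.15, against 0.29 and 0.36 between libraries, and the 95th percentile was 12.7-fold above the 5th. The well-counted features thus had a narrower spread than all features, and one that was still wider than that between libraries of an assay.

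Across the 13251 features, log2 CPM (counts scaled to the library total after TMM scaling) correlated with Pearson's r of 0.967 between the membrane libraries and 0.977 between the mRNA libraries. Between a membrane and an mRNA library, r was 0.801 to 0.817 in the 4 combinations, a description over features that share their transcript lengths and their isoform counting. Membrane footprints were also held by fewer features than mRNA. The 100 features with the most counts held 31.4% and 29.6% of the membrane footprints in libraries a and b, and 21.9% and 20.3% of the mRNA counts. Of the 1000 features with the most counts, membrane libraries a and b shared 947 and the mRNA libraries 896, while a membrane and an mRNA library shared 646 to 655.

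Single transcripts showed how far the ratio could go. ENST00000409914.5, with a coding length of 1055 codons, had 3194 and 7895 footprints in membrane libraries a and b and 82 and 102 counts in mRNA libraries a and b. In normalised CPM these were 1595 and 1397 against 3.33 and 3.58, so that both membrane libraries lay far above both mRNA libraries. Its log2 ratio of 8.75 (SE 0.23, edgeR adjusted p = 5.50e-14) was the highest among called features with at least 50 counts in each library. In the WT cytosolic fraction its log2 ratio was 8.40, from a comparison that uses the same mRNA libraries, so the high value was not particular to the membrane. Other features among the 12 highest had nearly the same footprint counts. Those at ranks 9, 10 and 11 had 3161 to 3243 footprints in membrane library a but 950 or 951 mRNA counts in mRNA library a, and log2 ratios of 5.36 to 5.38. Whether these entries share reads was not tested, and their separate ratios are uncertain.

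The second highest, ENST00000577856.2, is short, at 144 codons. It had 878 and 2222 membrane footprints and 119 and 85 mRNA counts, and its log2 ratio was 6.74 (SE 0.26, edgeR adjusted p = 3.62e-12). This high value was not particular to the membrane either. In the test of WT membrane against WT cytosolic footprints it was called lower in the membrane fraction, at a log2 difference of -0.68 (edgeR adjusted p = 0.021). The features at ranks 4, 5 and 6 have the same length and close to the same counts as each other, and are uncertain in the same way. Of the 12 highest, with log2 ratios from 5.17 to 8.75, 3 belonged to the membrane-enriched class described below. Among all 2763 features called higher with at least 50 counts in each library, 1279 belonged to it.

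At the other end, ENST00000404241.5 stood for 3 transcripts of 331 codons. It had 82 and 184 membrane footprints against 18206 and 18503 mRNA counts, or 40.9 and 32.6 against 739 and 649 normalised CPM. The log2 ratio was -4.26 (SE 0.21, edgeR adjusted p = 6.06e-11), the lowest of the called features with at least 50 counts in each library. ENST00000369980.6, with 692 codons, followed with 102 and 231 footprints against 14392 and 16387 mRNA counts, and a log2 ratio of -3.68 (SE 0.20, edgeR adjusted p = 1.95e-10). In both, the membrane and mRNA libraries did not overlap. These abundant mRNAs were also poor in footprints in the cytosolic fraction, at log2 ratios of -3.50 and -2.84, from a comparison that uses the same mRNA libraries. The 12 lowest ranged from -4.26 to -2.80, and none of the 12 was in the membrane-enriched class. Among all 767 features called lower with at least 50 counts in each library, 50 were in it.

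Transcripts whose ribosomes sit at the membrane were defined by a fraction ratio that used no WT library. The features themselves had been merged and filtered on counts of the WT membrane and mRNA libraries. A feature was called membrane-enriched when its membrane footprints exceeded its cytosolic footprints by more than 2-fold in each knockout line, with edgeR adjusted p under 0.05 in each. The class had 2215 of the 10502 features that had enough footprints in the knockout lines for this fraction ratio. It is a class by measured distribution, not by protein sequence, and it was checked against WT: in the test of WT membrane against WT cytosolic footprints, 2198 of the 2215 were higher in the membrane fraction and 0 were lower, where 22.5% of all tested features were higher and 9.18% lower. At an unadjusted p under 0.05 the number lower was also 0. The median member had 99 and 275 footprints in WT membrane libraries a and b, and 1 and 3 in WT cytosol libraries a and b.

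Membrane-enriched transcripts had more membrane footprints per mRNA in WT than the bulk of transcripts. Members could enter the class only with enough membrane footprints in the knockout lines, which favours features rich in the quantity compared here, so the size of the difference includes that selection and no test is put on it. Of the 2215, 1574 (71.1%) were called higher and 117 (5.28%) lower by edgeR, beside 26.5% and 30.1% of all tested features, and 524 were not called. With the library totals alone as the scale, 1031 members were higher and 408 lower, so the number lower depends on the scaling. Their relative median was 1.44, which is 2.71-fold, and lay between 1.38 and 1.49 in the 4 pairings of a membrane with an mRNA library. The 8287 other features with a fraction ratio were called higher in 1788 cases (21.6%) and lower in 2839 (34.3%), with a relative median of -0.08. The medians of the 2 sets were 1.52 apart on the log2 scale. Values overlapped widely between the sets, as the distributions by class show.

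**Figure D1:**
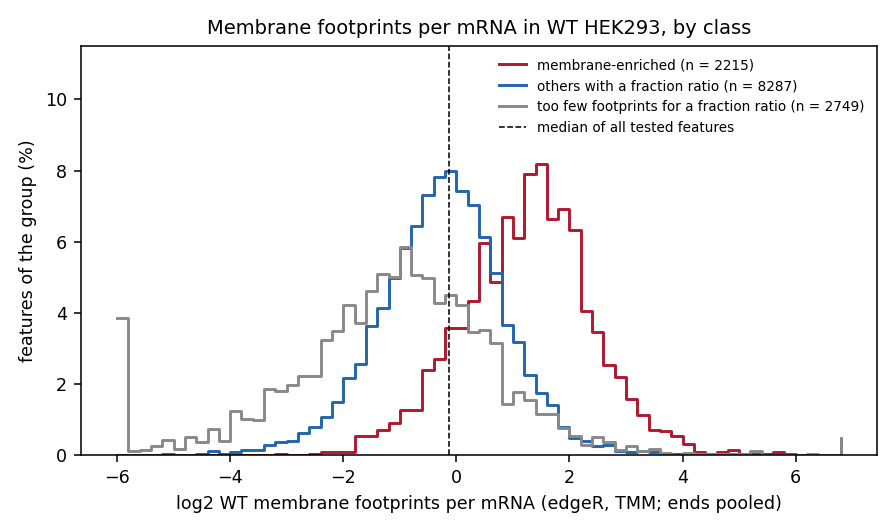
Distribution of log2 WT membrane footprints per mRNA (horizontal axis) as percent of the features of each class (vertical axis), in bins of 0.2 with values past the ends pooled in the end bins. Less the median of all tested features (dashed line), the median is 1.44 for the 2215 membrane-enriched features, -0.08 for the 8287 others with a fraction ratio and -0.85 for the 2749 without a fraction ratio.

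The class also took a larger share of the membrane footprints than of the mRNA. It held 24.2% of the footprints in membrane library a (95% exact binomial interval 24.19% to 24.29%) and 23.7% in membrane library b, against 12.0% and 12.8% of the counts in mRNA libraries a and b. The means were 24.0% ± 0.40 (SD, n = 2) and 12.4% ± 0.56 (SD, n = 2), a ratio of 1.93. The membrane libraries both lay above the mRNA libraries, and the two-sided exact permutation test gave p = 0.33, the smallest that 2 against 2 libraries allow. These intervals cover counting error only. Among the 1000 features with the most counts, 320 and 302 were membrane-enriched in the membrane libraries and 100 and 112 in the mRNA libraries.

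Most membrane footprints were nonetheless on transcripts outside the class. The other features with a fraction ratio, without the 109 that were cytosol-enriched by the same rule, held 72.2% ± 0.65 (SD, n = 2) of the membrane footprints and 82.7% ± 0.63 (SD, n = 2) of the mRNA counts. The 109 cytosol-enriched features had 28 (25.7%) called higher and 33 (30.3%) called lower by edgeR, with a relative median of -0.13. These shares were near the 26.5% and 30.1% of all tested features. The 2749 features with too few knockout footprints for a fraction ratio were lower in 1038 cases and higher in 143. Since too few footprints also define that set, its relative median of -0.85 is a description of the filter and is not set against the class.

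The WT ratio was higher in bins of higher fraction ratio in the knockout lines. Membrane footprints of the knockout lines are part of that fraction ratio, so the trend follows in part from the sorting and no test is put on it. Features whose log2 membrane over cytosol ratio there was under -1 had a relative median of -0.49 in WT, and those between -1 and 0 had -0.23. Between 0 and 1 the relative median was 0.21, between 1 and 3 it was 0.66, between 3 and 5 it was 0.85, and in the 1342 features over 5 it was 1.74. In that last bin 1120 features were called higher and 21 lower. The range over the library pairings was 1.71 to 1.77 there and 0.76 to 0.99 in the bin below it, so that these neighbours did not overlap, whereas the bins from 1 to 3 (0.62 to 0.70) and from 3 to 5 were close to each other.

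Cytosolic footprints per mRNA went the other way. In the comparison of WT cytosol with the same WT mRNA libraries, the relative median was 0.97 in the lowest bin and -4.37 in the highest. For the membrane-enriched class as a whole it was -3.84. Over all tested features that comparison called 15.6% higher and 40.7% lower by edgeR, and because it uses the same mRNA libraries its values are placed beside the membrane values and not tested against them. From the lowest to the highest bin the membrane value thus changed by 2.23 and the cytosol value by -5.34. The bins were sorted on membrane over cytosolic footprints, so opposite directions of these values follow in part from the sorting.

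**Figure D2:**
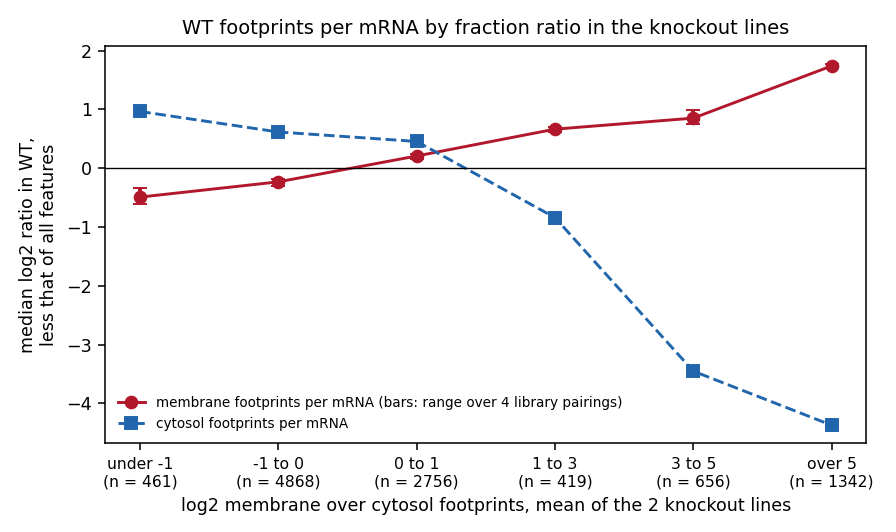
Median log2 footprints per mRNA in WT, less that of all tested features (vertical axis), in 6 bins of the log2 membrane over cytosol footprint ratio of the knockout lines (horizontal axis). Circles are membrane footprints per mRNA with the range over the 4 library pairings, which go from -0.49 to 1.74, and squares are cytosol footprints per mRNA, which go from 0.97 to -4.37.

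Among features called in both knockout lines, the fold threshold of the class was not a natural edge. The 39 such features just inside it, with a log2 fraction ratio of 1 to 1.25 in the knockout line where it was smaller, had a relative median of 0.56 in WT. The 51 such features just outside it, at 0.75 to 1, had 0.90. Features at these ratios that were not called in both lines are left out here, and being called favours features rich in footprints. Within the class, members called higher in WT had a median knockout fraction log2 ratio of 5.91, members not called 4.55 and members called lower 3.55. Among features with at least 50 counts in each library, 1279 of 1541 class members were called higher and 50 lower, beside 1484 and 717 of 3963 others. All features with that many counts were called higher in 50.2% and lower in 13.9% of cases, since a floor on footprints favours high ratios. When only those features were fitted and scaled, 1017 class members were called higher and 141 lower.

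In WT, coding length went with the ratio, and more so within the class. Tested features were divided into 3 groups of near equal size, the short ones of 4 to 330 codons, the middle ones up to 612 and the long ones up to 8903. Short membrane-enriched features were called higher in 559 of 673 cases (83.1%) and lower in 15, with a relative median of 1.86, which is 3.62-fold. Middle ones were higher in 575 of 780 and lower in 24, with a relative median of 1.48. Long ones were higher in 440 of 762 (57.7%) and lower in 78, with a relative median of 0.98. The ranges over library pairings, 1.75 to 1.94, 1.42 to 1.52 and 0.89 to 1.12, did not overlap.

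Outside the class the WT values followed the same order over a narrower range, and this did not hold in both knockout lines. The relative medians of the short, middle and long ones were 0.08, -0.06 and -0.26. In UFM1-KO they were 0.03, -0.08 and -0.31, but in UFSP2-KO the order was reversed, at -0.23, -0.12 and -0.07. Over all features the median of the long group less that of the short group was -0.31 on the log2 scale. It rested in part on single mRNA libraries, with -0.46 without WT mRNA library a and -0.20 without WT mRNA library b. In UFSP2-KO the relative median over all features was -0.11 for the short group and 0.04 for the long group, the opposite order to the 0.13 and -0.18 of WT, and UFM1-KO had 0.12 and -0.19. Within the class the order held in each line, with 1.86, 1.51 and 1.13 for the short, middle and long members of UFM1-KO and 1.91, 1.65 and 1.38 for those of UFSP2-KO. Spearman's rho between coding length and the ratio was -0.35 across the 2215 class members, -0.15 across the 8287 others and -0.11 across all 13251 features. These are descriptions over features that share their libraries, and length is also part of how many counts a feature collects. Entry into the class needed enough footprints in the knockout lines, so the length order within it may include that selection, which was not tested. In the comparison of WT cytosol with the same mRNA libraries, short, middle and long features had relative medians of 0.56, 0.001 and -0.42. Outside the class these were 1.07, 0.61 and 0.06, and within it -3.14, -4.03 and -4.31. The WT length order was thus not particular to the membrane footprints.

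In finer bins the relative median of the class went from 2.28 in the 40 members of up to 100 codons to 2.12 at 101 to 200 and 1.65 at 201 to 400 codons. At 401 to 800 codons it was 1.33 to 1.44 over the library pairings. It was 0.96 at 801 to 1600 codons and 0.54 in the 135 members of over 1600 codons. The last value was the least certain, with 0.27 to 0.83 over the library pairings. In each of the 6 length bins the class lay above the other features of that length.

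**Figure D3:**
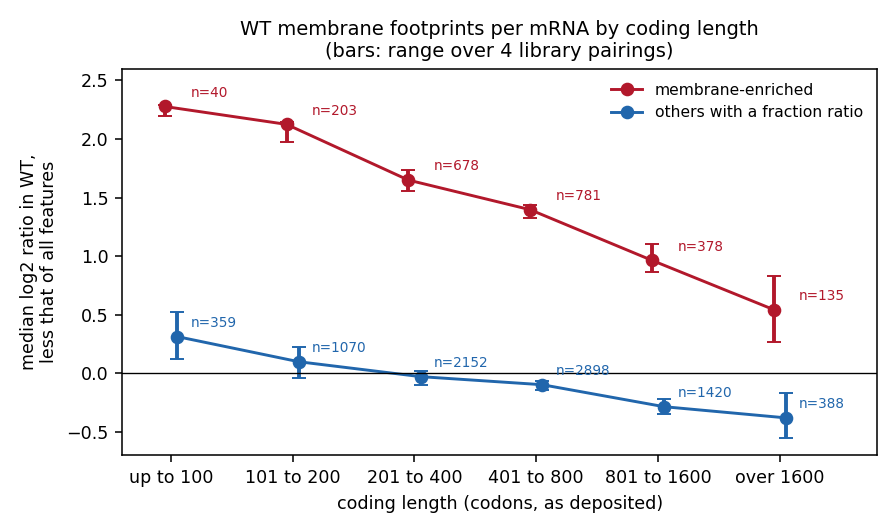
Median log2 WT membrane footprints per mRNA, less that of all tested features (vertical axis), by coding length in codons (horizontal axis) for membrane-enriched features (upper line) and the others with a fraction ratio (lower line), with the range over the 4 library pairings as bars and the number of features beside each point. The class goes from 2.28 at up to 100 codons to 0.54 at over 1600 codons, and the others from 0.31 to -0.38.

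The 117 class members that were called lower made up the opposite end. Of these, 66.7% were in the long group, against 34.4% of the whole class and 28.0% of the members called higher. Their relative median was -0.92. As given above, the number of members called lower was 408 with the library totals alone as the scale. In the knockout lines, whose membrane libraries also defined the class, UFM1-KO had 77 of the 117 lower and UFSP2-KO had 69. Of all 3994 features called lower in WT, 76.9% and 72.2% were lower in these lines, beside 27.8% and 26.8% of all tested features. The class members called lower in WT thus did not recur more often than WT-lower features in general. Lower calls were rare in the class itself, however. Of its 2215 members, 94 were called lower for UFM1-KO and 77 for UFSP2-KO. Most of the class members lower in either line were thus among the 117. Both lines had 60 of the 117 lower, and edgeR called 0 of the 117 higher in either line, also at an unadjusted p under 0.05.

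Within the class as a whole, the group of most abundant mRNAs had the highest relative median, but not among its short members. Because mRNA counts are in the denominator of the ratio, mRNA level was taken from the UFM1-KO and UFSP2-KO mRNA libraries, per codon, which the WT ratio does not use, and features were ranked into 5 equal groups. In the group of highest mRNA level, above 194 CPM per 1000 codons, 332 of 380 class members (87.4%) were called higher and 22 lower, with a relative median of 2.22. All features of that group were called higher in 42.8% and lower in 24.6% of cases, with a relative median of 0.44. From the lowest to the next highest group the relative medians of the class were 1.39, 1.23, 1.25 and 1.43. Over the library pairings these 4 groups spanned 1.08 to 1.66 and overlapped in part, and the highest group lay above them in every pairing.

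Outside the class the pattern with mRNA level was weaker and not in order. From the lowest to the highest group the relative medians were 0.37, -0.25, -0.26, -0.20 and 0.29. The lowest group held 474 such features, because few features of low mRNA level had enough footprints for a fraction ratio, and those that did were selected for footprints. Length and mRNA level went together, with a median of 252 codons in the group of highest mRNA level and 561 in the lowest. Among the short class members the lowest mRNA group, with 42 features, had a relative median of 2.30 (2.11 to 2.54 over the library pairings) and the highest, with 231, had 2.24 (2.15 to 2.39), so these did not differ beyond that range, and the 3 groups between them lay at 1.58 to 1.68. Among the long class members the highest mRNA group, with 41 features, had 1.99, and the lowest, with 177, had 1.05. At each of the 5 mRNA levels the median of the short class members lay above that of the long ones. The values were 1.67 and 0.89 in the second group and 1.58 and 0.92 in the middle group. In the fourth group the library pairings ran from 1.54 to 1.76 for the short and from 0.93 to 1.08 for the long members. The step was smallest in the highest group, where the ranges over the library pairings overlapped. They ran from 2.147 to 2.392 for the short and from 1.822 to 2.154 for the long members.

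**Figure D4:**
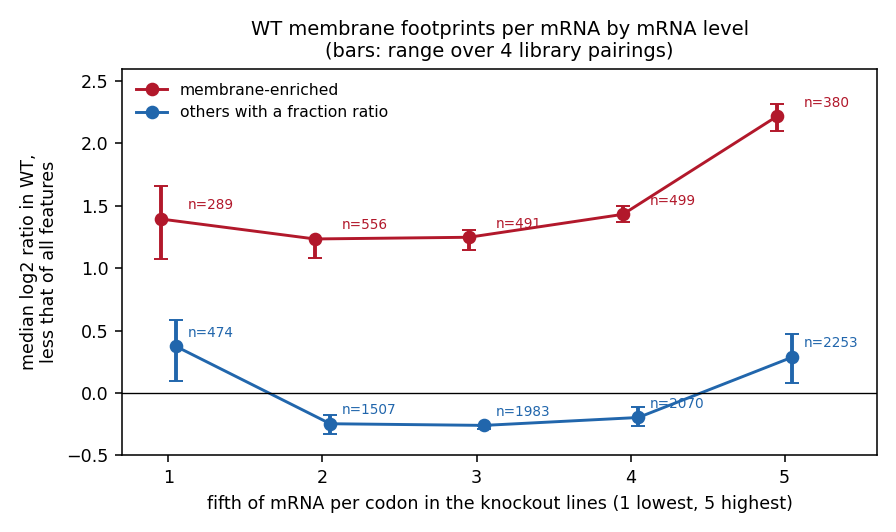
Median log2 WT membrane footprints per mRNA, less that of all tested features (vertical axis), in 5 groups of mRNA per codon measured in the knockout lines (horizontal axis, 1 lowest and 5 highest), with the range over the 4 library pairings as bars. Membrane-enriched features lie between 1.23 and 1.43 in the 4 lower groups and at 2.22 in the highest, and the others lie between -0.26 and 0.37.

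Feature by feature, separate libraries of the same measure gave mostly the same directions, although the length order outside the class did not hold in UFSP2-KO. The same test within UFM1-KO called 24.3% of the features higher and 27.8% lower, and within UFSP2-KO it called 23% higher and 26.8% lower. Of the 3505 features higher in WT, 3429 (97.8%) had the same direction in UFM1-KO, as did 3351 (95.6%) when UFSP2-KO was measured. The same edgeR test called 2802 (79.9%) of them higher for UFM1-KO, against 2615 (74.6%) for UFSP2-KO, and it called 0 and 7 of them lower, or 0 and 11 at an unadjusted p under 0.05. The median of the 3505 was 1.37 in WT, where they were chosen, against 1.26 for UFM1-KO and 1.28 for UFSP2-KO.

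The 3994 features lower in WT were as steady. The same direction was found for 3927 (98.3%) of them in UFM1-KO, compared with 3906 (97.8%) in UFSP2-KO. Of these 3994, the first line had 3070 (76.9%) called lower and the second 2882 (72.2%), and 1 and 3 were called higher. In all 3 lines 2399 features were called higher and 2561 lower. Pearson's r with the WT log2 ratio was 0.867 for UFM1-KO and 0.824 for UFSP2-KO across 13251 features, and 0.954 and 0.921 across the 5504 with at least 50 counts in each WT library. These correlations are over features that share lengths and isoform counting, with no library in common.

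**Figure D5:**
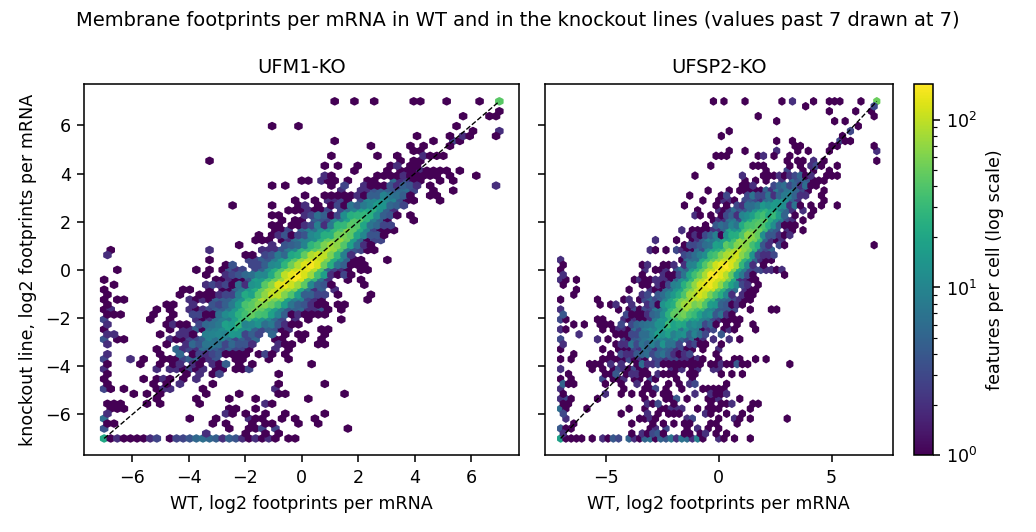
Log2 membrane footprints per mRNA of the 13251 tested features in WT (horizontal axes) against UFM1-KO (left, vertical axis) and UFSP2-KO (right, vertical axis), as the number of features per hexagon on a log colour scale, with values past 7 drawn at 7. Most features lie along the dashed line of equal values (r = 0.867 and 0.824), and the row at the lower edge holds features drawn at the limit of the axis.

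The difference between the lines was tested in 1 edgeR model over all 18 libraries. Between UFM1-KO and WT it called 0 features at adjusted p under 0.05, with 550 of 13251 at an unadjusted p under 0.05. Between UFSP2-KO and WT it called 11, with 1172 of 13251 at an unadjusted p under 0.05. An unadjusted threshold also passes features that do not differ, so these 2 larger counts are not counts of differences. A missed threshold does not show that the lines were alike.

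A few features had one kind of count only. With at least 10 footprints in each WT membrane library, 25 features had 0 counts in both WT mRNA libraries, and 19 of these had 0 in all 6 mRNA libraries of the study. The most counted of the 25 had a mean of 380.5 membrane footprints, and no ratio is given for them. In the other direction, 7 features had at least 100 mRNA counts in each WT library and 0 membrane footprints, and 1 of the 7 also had 0 cytosolic footprints in WT. The counting program was not given in the sources used here, and whether shared reads went into these entries was not tested.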

How the data were processed

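Ribosome footprints and mRNA of HEK293 cells were measured by sequencing, with 2 libraries per group. The values are whole-number read counts per transcript as deposited by the authors, with no normalization, beside a length in codons that the mRNA files give as 1 more than the footprint files. TopHat2 2.1.1 and the build GRCh38 are named per the submitters' processing notes, while the sources used here do not give the counting program or the annotation. Of the deposited counts, 2.42% and 2.26% in membrane libraries a and b and 47.4% and 48.0% in mRNA libraries a and b were on entries that were not matched between the assays and were left out, with 84 entries of the Y copy of the pseudoautosomal regions among them.

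Counts of the 4 WT libraries were tested in R 4.3.3 with edgeR 4.0.16 (filterByExpr with a minimum count of 10, TMM, glmQLFit, glmQLFTest, two-sided, Benjamini-Hochberg adjusted p under 0.05), after a check on data with known answers. Log2 CPM used a prior count of 2. Library pairings are differences of these values between 1 membrane and 1 mRNA library. DESeq2 1.42.0, other scalings and filters, each library left out, and a replicate block were the alternatives. The letters a and b are not said to pair libraries.

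The comparison, lists and tests were chosen with earlier results of these data known. Planned gene lists, marker genes and protein classes could not be applied without gene names, and the fraction class, length and mRNA groups stand in for them, added after the files were seen. Transcripts named are the 2 highest and 2 lowest of the 12 highest and 12 lowest called features with at least 50 counts in each library. No per-sample value went unmapped.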

Additional observations from a re-analysis of the deposited data

Results flagged for a closer look

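A large part of the mRNA counts lies outside the comparison. Entries not matched between the assays held 47.4% of the deposited counts in WT mRNA library a and 48.0% in WT mRNA library b, but 2.42% in WT membrane library a and 2.26% in WT membrane library b. Ratios are therefore relative to the matched mRNA only, and what the unmatched mRNA entries are was not tested.

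Membrane footprints per mRNA differed between UFSP2-KO and WT for 11 features by the edgeR interaction test over 18 libraries. Of the 11, 6 were higher in UFSP2-KO, with a median log2 difference of 3.65, and 5 were lower, with -3.19. Among them, 10 were called in the WT comparison, beside 7499 of all 13251 tested features. Membrane-enriched features made up 2 of the 11, beside 2215 of the 13251.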

How the results depend on the processing

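In WT, 7499 features were called by edgeR's quasi-likelihood test. With library totals as the only scale, the calls split into 1671 higher and 7653 lower. With at least 50 counts required in each library, 3497 were called, 1690 higher and 1807 lower, since fewer features were tested, and the membrane-enriched class lay 1.31 above the others. With the class set at over 8-fold it lay 1.62 above. With DESeq2, 3542 were higher and 3085 lower. Without each library in turn, 5726 to 7692 features were called, the class lay 1.46 to 1.58 above the others, and long less short features gave -0.46 to -0.20. The count of WT membrane against cytosol calls was 4202, and 3005 to 4584 without each library. A replicate block on the letters a and b gave 7070 calls (3320 higher, 3750 lower), and 3968 for membrane against cytosol. With 2 pairs, the letters gave a correlation of deviations of -0.076 over all features and -0.28 at 50 counts, and the crossed letters as a block gave 8225 calls. Of the settings run, none turned the direction of the class difference, of the long less short difference or of the 4 named transcripts. The bins of fraction ratio and mRNA level, and length within the class, were not recomputed under them. The class counts were 1031 higher and 408 lower with library totals only. Alternatives that need gene names (1 feature per gene, mitochondrially encoded features left out, gene lists) or protein sequences were not run. Depth limits features of few footprints, where the median count in membrane library a was 35.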
